A study of Schizosaccharomyces pombe with 8 samples.

Results

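The cytosolic heat shock proteins of the fission yeast Schizosaccharomyces pombe and their regulator Hsf1 were followed here as 10 genes of the 5165 in the expression table. They were chosen by name and identifier: hsp9 (SPAP8A3.04c), hsp16 (SPBC3E7.02c), hsp104 (SPBC16D10.08c), ssa1 (SPAC13G7.02c), ssa2 (SPCC1739.13), swo1 (the Hsp90 gene, SPAC926.04c), hsf1 (SPAC2E12.02), sti1 (SPCC645.14c), mas5 (SPBC1734.11) and wos2 (SPAC9E9.13). All 10 passed the filter on low values. RNA had been measured in 4 groups of 2 libraries: wild type (strain 972) untreated, wild type after 30 min in 1 mM hydrogen peroxide (H2O2), a pgr1 deletion mutant untreated, and the mutant after the same treatment. Glutathione reductase, the product of pgr1, reduces oxidised glutathione. All cells had grown in the rich medium YE5S at 30 °C to an OD600 of 0.5, and no label says how the deletion was made or whether more than 1 mutant clone was used. The series compares how the strains express their genes with and without peroxide.

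Heat shock proteins are chaperones that bind unfolded or damaged proteins. Small heat shock proteins hold such proteins, the disaggregase Hsp104 pulls aggregates apart, and Hsp70 refolds chains with the help of J-proteins. Hsp90 matures kinases, receptors and other clients that it takes over from Hsp70 through co-chaperones. In eukaryotes the transcription factor Hsf1 induces chaperone genes when unfolded proteins accumulate, and Hsp70 with its J-proteins restrains it in unstressed cells. In fission yeast, peroxide also activates the Sty1 kinase, which acts through the factor Atf1, and a separate factor, Pap1.

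Between 12026222 and 14125543 reads per library were recovered from the deposited values. The 10 genes had between 1617 and 138581 reads in a library, which keeps counting error small beside the fold changes given below. The transcript of pgr1 stood between 4805 and 7201 normalized counts in the wild-type libraries and between 91 and 159 in the mutant ones. Every library thus matched the strain on its label, while this transcript does not check the treatment. The labels do not say whether replicate libraries come from separate cultures, so p-values measure the spread between these libraries, which may be technical. Levels below are the authors' DESeq2-normalized counts, given for replicate 1 and then replicate 2. Fold changes are log2 values ± SE with n = 2 libraries a group, from limma on log2(value + 1). A gene was called at a Benjamini-Hochberg (BH) adjusted p below 0.05 over all 5028 genes tested. These are bulk RNA levels, in which fewer cells with a transcript and less of it per cell cannot be told apart.

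Small heat shock proteins and the disaggregase made up the steeply induced genes together with ssa1. The gene hsp16 encodes a small heat shock protein of the alpha-crystallin family. Wild-type libraries held 1416 and 1662 normalized counts of its transcript without peroxide and 37079.7 and 32096 with it, and mutant libraries held 18774 and 20936 without and 42859.6 and 42587 with it. All 4 groups stood apart, untreated wild type was lowest, and the untreated mutant already lay within 1.74-fold of treated wild type. In wild type H2O2 raised hsp16 by 4.49 ± 0.11, a 22.5-fold change (limma, BH-adjusted p = 3.85e-09). In the mutant it rose by 1.11 ± 0.11, or 2.15-fold (limma, BH-adjusted p = 2.32e-05).

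The gene hsp9 encodes a small stress protein that the reference annotation calls a plasma membrane heat shock protein, so not all of the 10 products are soluble cytosolic proteins by that annotation. Without peroxide, normalized counts of its transcript were 5106 and 6254 in wild type and 28916 and 36307 in the mutant, and with peroxide they were 78272 and 96123 in wild type and 93376 and 108751 in the mutant. The treated groups of both strains overlapped, and the untreated mutant lay between untreated wild type and these. The rise with H2O2 was 3.94 ± 0.16 in wild type (15.4-fold; limma, BH-adjusted p = 6.5e-08) and 1.64 ± 0.16 in the mutant (3.11-fold; limma, BH-adjusted p = 2.65e-05).

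Wild-type libraries held 2695 and 1899 normalized counts of hsp104, which encodes the disaggregase, without peroxide and 48627 and 40585 with it, and mutant libraries held 7742 and 6053 without and 35197 and 29909 with it. No groups overlapped, and here treated wild type was the highest. H2O2 raised hsp104 by 4.29 ± 0.18 in wild type (19.6-fold; limma, BH-adjusted p = 7.5e-08) and by 2.24 ± 0.18 in the mutant (4.74-fold; limma, BH-adjusted p = 7.42e-06).

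The cytosolic Hsp70 genes ssa1 and ssa2 differed in both level and induction. Few stretches of 31 bases are shared between them (1.10% of those of ssa1 and 1.55% of those of ssa2), so few reads could be assigned to either. Without peroxide, normalized counts of ssa1 were 2028 and 1752 in wild type and 10707 and 8923 in the mutant, and with peroxide they were 77622 and 66197 in wild type and 69884 and 61287 in the mutant. The treated groups overlapped, and the untreated groups were well below them and apart from each other. With H2O2 ssa1 rose by 5.25 ± 0.13 in wild type (38.0-fold; limma, BH-adjusted p = 4.48e-09), the largest change among the 10 genes, and 29 of the 5028 genes tested had a larger one. In the mutant it rose by 2.74 ± 0.13 (6.70-fold; limma, BH-adjusted p = 3.64e-07).

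The other cytosolic Hsp70 gene, ssa2, was abundant without stress. Wild-type libraries held 75569 and 68439.9 normalized counts of its transcript without peroxide and 146360.3 and 146005 with it, and mutant libraries held 85294 and 74366 without and 135054 and 122392 with it. The untreated groups overlapped and the treated groups lay above them. The rise was 1.02 ± 0.14 in wild type (2.03-fold; limma, BH-adjusted p = 1.63e-04) and 0.69 ± 0.14 in the mutant (1.61-fold; limma, BH-adjusted p = 0.00222). Quantile normalization put the wild-type value at 0.0 and ended its call. That method sets values by rank within a library, and ssa2 had the highest mean count of all genes. A gene that keeps its rank comes to 0.0 there whatever its rise in counts, so the 0.0 cannot show that ssa2 did not rise. Within a library, ssa1 gave 2.61% and 2.50% of the reads of the Hsp70 pair in wild type without peroxide and 34.7% and 31.2% with it, and in the mutant 11.15% and 10.7% without and 34.1% and 33.4% with it. The exact (Clopper-Pearson) 95% intervals cover counting error alone and ran, for example, from 2.51% to 2.72% for the first of these libraries. These shares need no scaling between libraries, and the treated libraries of both strains fell in 1 range.

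The J-protein gene mas5, whose product delivers substrates to Hsp70, moved least. Without peroxide, normalized counts of its transcript were 9897 and 9349 in wild type and 9868 and 9374 in the mutant, and with peroxide they were 13149 and 11152 in wild type and 10516 and 9276 in the mutant. Treated wild type stood above the other libraries, which all overlapped. The change with H2O2 was 0.33 ± 0.10 in wild type (limma, BH-adjusted p = 0.014) and 0.04 ± 0.10 in the mutant (limma, BH-adjusted p = 0.748, 95% interval -0.19 to 0.26). The wild-type call was lost when libraries were scaled to their totals, where the change was -0.02, under quantile normalization (-0.05), and without replicate 2 of untreated (0.29) or replicate 1 of treated wild type (0.21). Scaled to totals, mas5 was called lower in the mutant, at -0.28.

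**Figure D1:**
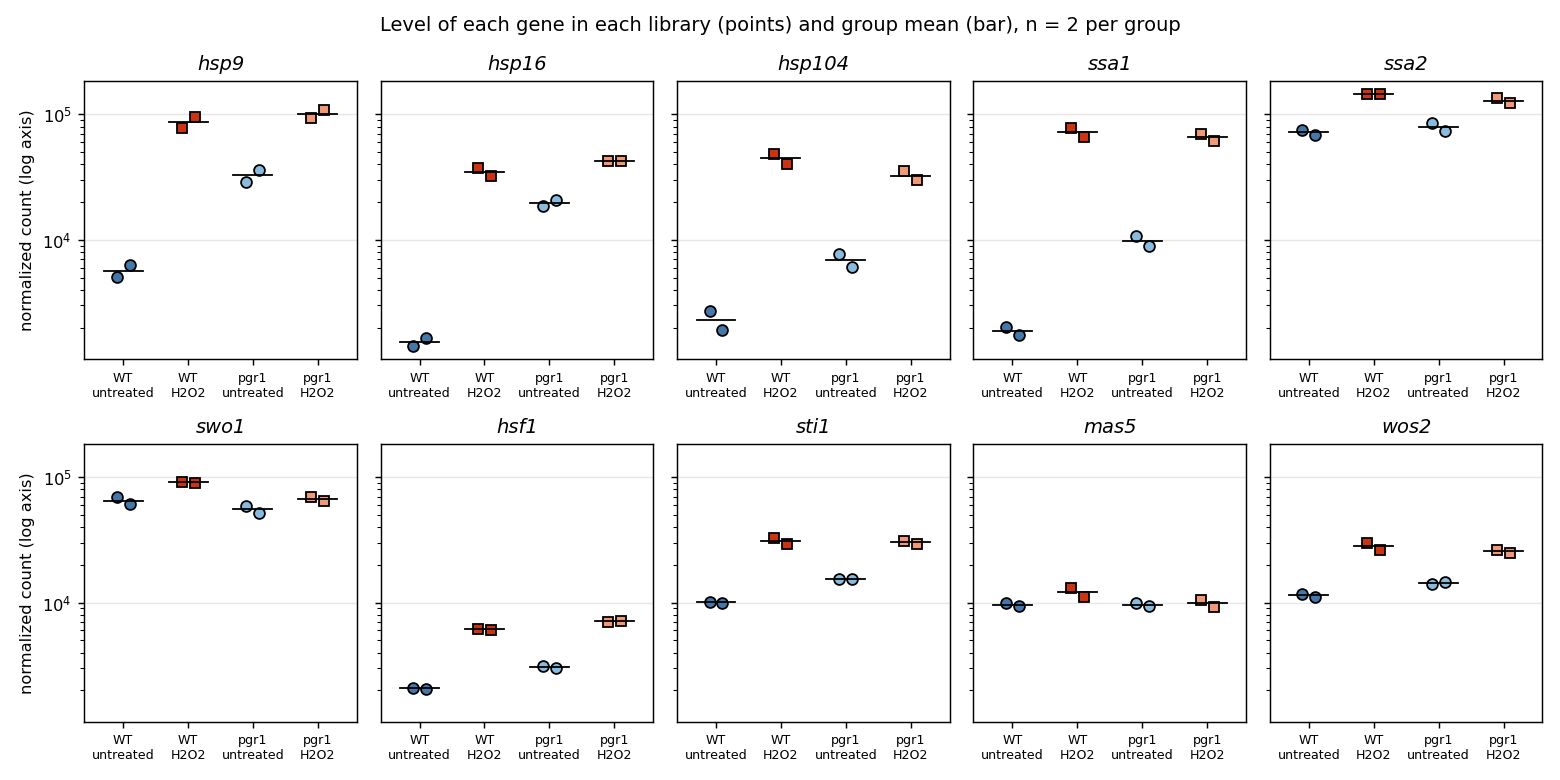
Normalized counts (log axis) of the 10 genes in each of the 8 libraries, by group (WT, wild type; pgr1, the deletion mutant). Points are libraries and bars are means of 2. In hsp9, hsp16, hsp104 and ssa1 the untreated mutant sits between untreated and treated wild type, for hsp16 at 18774 and 20936 against 1416 and 1662 in untreated wild type. The libraries of mas5 all sit between 9276 and 13149.

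Hsp90 and its co-chaperones moved less than the Hsp70 partner ssa1, though sti1 and wos2 had larger fold changes with H2O2 than ssa2 in both strains. Wild-type libraries held 68819.6 and 61378 normalized counts of swo1, the Hsp90 gene, without peroxide and 92091 and 89744 with it, and mutant libraries held 58618 and 52219 without and 69942 and 64678 with it. Treated wild type was highest, and the treated mutant overlapped untreated wild type. In wild type swo1 rose by 0.48 ± 0.13 (1.40-fold; limma, BH-adjusted p = 0.00706). In the mutant it was at 0.28 ± 0.13 and did not pass (limma, BH-adjusted p = 0.0752, 95% interval -0.01 to 0.57). The wild-type call was lost under scaling to library totals (0.13), without replicate 2 of untreated wild type (0.40) and under quantile normalization, where the value turned to -0.15. The mutant's value was called with DESeq2 and with limma without a trend (BH-adjusted p = 0.00803 and 0.0311).

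The gene sti1 encodes the co-chaperone that links Hsp70 to Hsp90. Without peroxide, normalized counts of its transcript were 10115 and 9991 in wild type and 15382 and 15308 in the mutant, and with peroxide they were 32698 and 29149 in wild type and 31067 and 29459.9 in the mutant. The treated groups overlapped, with the untreated mutant between them and untreated wild type. The rise with H2O2 was 1.62 ± 0.09 in wild type (3.07-fold; limma, BH-adjusted p = 3e-07) and 0.98 ± 0.09 in the mutant (1.97-fold; limma, BH-adjusted p = 1.19e-05).

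The gene wos2 encodes a p23 protein, which binds Hsp90 late in its cycle. Wild-type libraries held 11802 and 11171 normalized counts of its transcript without peroxide and 30046 and 26309.7 with it, and mutant libraries held 13939 and 14593 without and 26227 and 24934 with it. All groups stood apart, by little between the treated ones. The rise was 1.29 ± 0.09 in wild type (2.45-fold; limma, BH-adjusted p = 1.87e-06) and 0.84 ± 0.09 in the mutant (1.79-fold; limma, BH-adjusted p = 4.43e-05).

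Within a library, co-chaperone transcripts can be read relative to Hsp90. Per coding kilobase, sti1 had 0.175 and 0.194 reads for each read of swo1 in wild type without peroxide and 0.423 and 0.387 with it, and in the mutant 0.3125 and 0.349 without and 0.529 and 0.542 with it. For wos2 the ratio in wild type was 0.647 and 0.686 without peroxide and 1.23 and 1.105 with it, and in the mutant 0.8965 and 1.05 without and 1.41 and 1.45 with it. No groups overlapped in either ratio, and the treated mutant was highest in both. Its mean counts of sti1 and wos2 were not above those of treated wild type, while its swo1 was lower (67310 against 90917). Over exon length, an alternative added after seeing the data, wos2 stood below swo1 in treated wild type (28066 against 35212 per kilobase). In the treated mutant it was at 25479 against 26069. The ratios are given as a description, with no test.

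**Figure D2:**
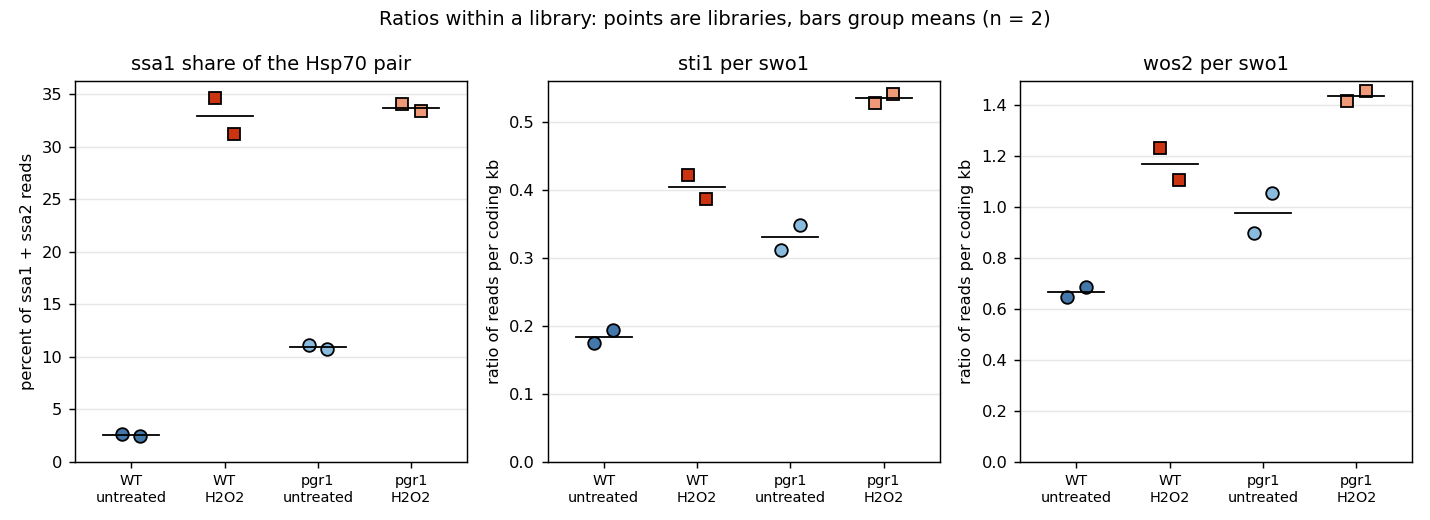
Ratios within a library, from left to right the share of ssa1 in the reads of ssa1 plus ssa2 (percent), and the reads of sti1 and of wos2 per read of swo1 (each per coding kilobase). Points are libraries and bars are means of 2. The share of ssa1 rises from 2.50% and 2.61% in untreated wild type to between 31.2% and 34.7% in the treated libraries. The treated mutant, in which swo1 is lower than in treated wild type, has the highest co-chaperone ratios.

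The regulator itself was also induced. Without peroxide, normalized counts of hsf1 were 2098 and 2035 in wild type and 3139 and 3031 in the mutant, and with peroxide they were 6174 and 6077 in wild type and 7000.5 and 7161 in the mutant. All groups stood apart, replicates lay close together, and the treated mutant was highest. H2O2 raised hsf1 by 1.57 ± 0.06 in wild type (2.96-fold; limma, BH-adjusted p = 4.17e-08) and by 1.20 ± 0.06 in the mutant (2.30-fold; limma, BH-adjusted p = 4.82e-07). Of the exon bases of hsf1, 13.6% lie opposite another coding gene, and the strand setting of the counting is not given, so a part of its reads could belong to that gene.

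In wild type all 10 genes rose with H2O2, where 72.3% of all genes tested were called, 37.7% higher and 34.6% lower. Their median was 1.59, beside -0.00072 over all genes, and they ran from 0.33 (mas5) to 5.25 (ssa1). In the mutant 8 of the 10 rose, where 68.2% of all genes were called, 35.7% higher and 32.5% lower, and swo1 and mas5 were not called. The median of the 10 was 1.04, beside 0.01 over all genes. Under scaling to library totals the median of all genes was -0.35 in wild type and -0.305 in the mutant. The wild-type count of 10 fell to 8 under that scaling and without replicate 2 of untreated wild type (swo1 and mas5 lost), to 9 without replicate 1 of treated wild type (mas5 lost), and to 7 under quantile normalization, where ssa2 was lost too.

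**Figure D3:**
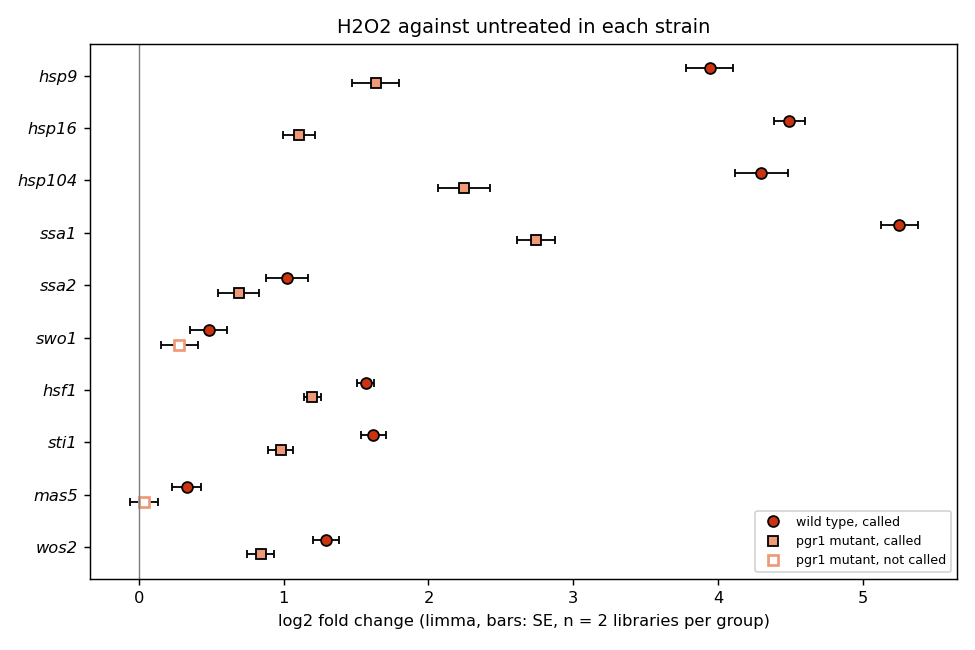
Log2 fold change with H2O2 of each gene in wild type (circles) and in the pgr1 mutant (squares), from limma, with bars for the SE and n = 2 libraries a group. Open symbols did not pass. The wild-type value is the larger for all 10 genes, from 5.25 against 2.74 for ssa1 to 0.33 against 0.04 for mas5.

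The responses of the strains differed for 7 of the 10 genes, all smaller in the mutant, where 27.3% of all genes were called, 12% with a higher response in the mutant and 15.3% with a lower one. The difference (mutant minus wild type) was -3.38 ± 0.15 for hsp16, a 10.4-fold smaller response (limma, BH-adjusted p = 4.7e-06). It was -2.51 ± 0.18 for ssa1 (limma, BH-adjusted p = 3.98e-05), -2.30 ± 0.23 for hsp9 (limma, BH-adjusted p = 2.16e-04) and -2.05 ± 0.26 for hsp104 (limma, BH-adjusted p = 7.16e-04). Smaller differences passed for sti1 (-0.64 ± 0.12; limma, BH-adjusted p = 0.00525), wos2 (-0.45 ± 0.13; limma, BH-adjusted p = 0.0316) and hsf1 (-0.37 ± 0.08; limma, BH-adjusted p = 0.012). For ssa2 (-0.33, 95% interval -0.79 to 0.13), swo1 (-0.20, -0.61 to 0.20) and mas5 (-0.29, -0.61 to 0.03) no difference was called. The call of wos2 was lost under scaling to library totals and in 6 of the 8 limma fits that left out 1 library (all but replicate 1 of untreated and replicate 2 of treated wild type; adjusted p = 0.0601 to 0.133). That of hsf1 was lost in limma without replicate 1 (adjusted p = 0.062) or replicate 2 (adjusted p = 0.0512) of the treated mutant.

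The difference between responses is the same quantity as the strain difference after H2O2 minus that before it, so the strain differences show where it lay. Without peroxide 7 of the 10 genes were higher in the mutant and none was lower, where 38.5% of all genes were called, 22.8% higher and 15.8% lower. The gene hsp16 was higher by 3.69 ± 0.11, or 12.9-fold (limma, BH-adjusted p = 5.48e-08). Next were hsp9 at 2.52 ± 0.16 (5.73-fold; limma, BH-adjusted p = 4.64e-06), ssa1 at 2.37 ± 0.13 (5.18-fold; limma, BH-adjusted p = 1.5e-06) and hsp104 at 1.60 ± 0.18 (3.03-fold; limma, BH-adjusted p = 1.85e-04). The order among these differed from that of the peroxide response of wild type, where ssa1 led and hsp16 came next.

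Smaller differences in the untreated mutant passed for sti1 (0.61 ± 0.09; limma, BH-adjusted p = 6.58e-04), hsf1 (0.58 ± 0.06; limma, BH-adjusted p = 9.84e-05) and wos2 (0.31 ± 0.09; limma, BH-adjusted p = 0.025). The call of wos2 was lost under quantile normalization, under scaling to library totals and without replicate 2 of untreated wild type (limma, BH-adjusted p = 0.124) or either replicate of the untreated mutant (0.0645 and 0.113). The abundant ssa2 was at 0.15 (95% interval -0.18 to 0.47), mas5 at -0.00017 (-0.23 to 0.23) and swo1 at -0.23 (-0.52 to 0.05), none of them called. Quantile normalization turned ssa2 to -0.46 and called it and swo1 (-0.65) lower (limma, BH-adjusted p = 0.0101 and 0.00507). The values of that method follow rank within a library, and both genes were among the 10 most abundant. The comparisons of H2O2 in wild type and of the mutant without H2O2 share the untreated wild-type libraries. Side by side, their values were 4.49 and 3.69 for hsp16, 3.94 and 2.52 for hsp9, 5.25 and 2.37 for ssa1, 4.29 and 1.60 for hsp104, and 1.02 and 0.15 for ssa2.

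After H2O2 the strains lay close together on these genes. Higher in the mutant were hsp16 (0.31 ± 0.11, 1.24-fold; limma, BH-adjusted p = 0.0418) and hsf1 (0.21 ± 0.06, 1.16-fold; limma, BH-adjusted p = 0.018), 2 of 10, where 49% of all genes were called and 26.5% were higher. Lower were swo1 (-0.43 ± 0.13; limma, BH-adjusted p = 0.0195) and mas5 (-0.29 ± 0.10; limma, BH-adjusted p = 0.0362), 2 of 10, where 22.4% of all genes were lower. These shares are near the background. The other 6 were not called: hsp104 at -0.45 (95% interval -0.87 to -0.04; limma, BH-adjusted p = 0.0677), hsp9 at 0.22 (-0.15 to 0.59), ssa2 at -0.19 (-0.51 to 0.14), wos2 at -0.14 (-0.34 to 0.07), ssa1 at -0.13 (-0.42 to 0.16) and sti1 at -0.03 (-0.22 to 0.17). Under quantile normalization hsp16 turned to -0.0036, and its call was also lost under library totals, TMM scaling, limma without trend and edgeR (adjusted p = 0.126, 0.0565, 0.0593 and 0.069). The call of hsf1 was lost under library totals (0.12; limma, BH-adjusted p = 0.126), and that of mas5 under quantile normalization, limma without trend and the fit to the 4 treated libraries (adjusted p = 0.0518, 0.0563 and 0.0531). Each of the 4 calls was lost in at least 2 of the 4 fits that left out 1 treated library, while hsp104 was called lower in the mutant under 8 alternatives, DESeq2 (adjusted p = 0.0108) and a limma fit to the 4 treated libraries (adjusted p = 0.0274) among them.

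**Figure D4:**
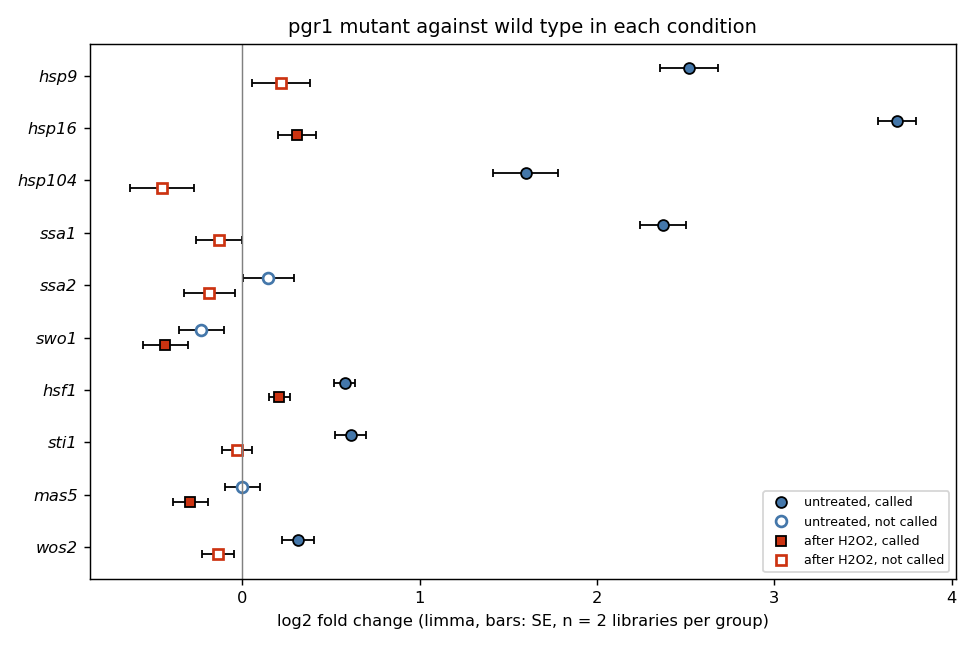
Log2 fold change of the pgr1 mutant against wild type for each gene, untreated (circles) and after H2O2 (squares), from limma, with bars for the SE and n = 2 libraries a group. Open symbols did not pass. Untreated, hsp16 sits at 3.69, hsp9 at 2.52, ssa1 at 2.37 and hsp104 at 1.60, and after H2O2 all 10 genes sit between -0.45 and 0.31.

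Of all reads in a library, the 10 genes took 1.73% and 1.57% in wild type without peroxide and 4.04% and 3.82% with it, and in the mutant 2.10% and 2.04% without and 3.49% and 3.36% with it. No groups overlapped. The exact 95% interval of the first of these was 1.721% to 1.735%, narrower than the difference between replicates. In replicate 1 of untreated wild type most of these reads fell on ssa2 (0.689% of all reads) and swo1 (0.627%), while hsp9 (0.0466%), hsp104 (0.0246%), ssa1 (0.0185%) and hsp16 (0.0129%) took little. In replicate 1 of treated wild type ssa2 took 1.05%, swo1 0.662%, hsp9 0.563%, ssa1 0.558%, hsp104 0.350% and hsp16 0.267%.

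**Figure D5:**
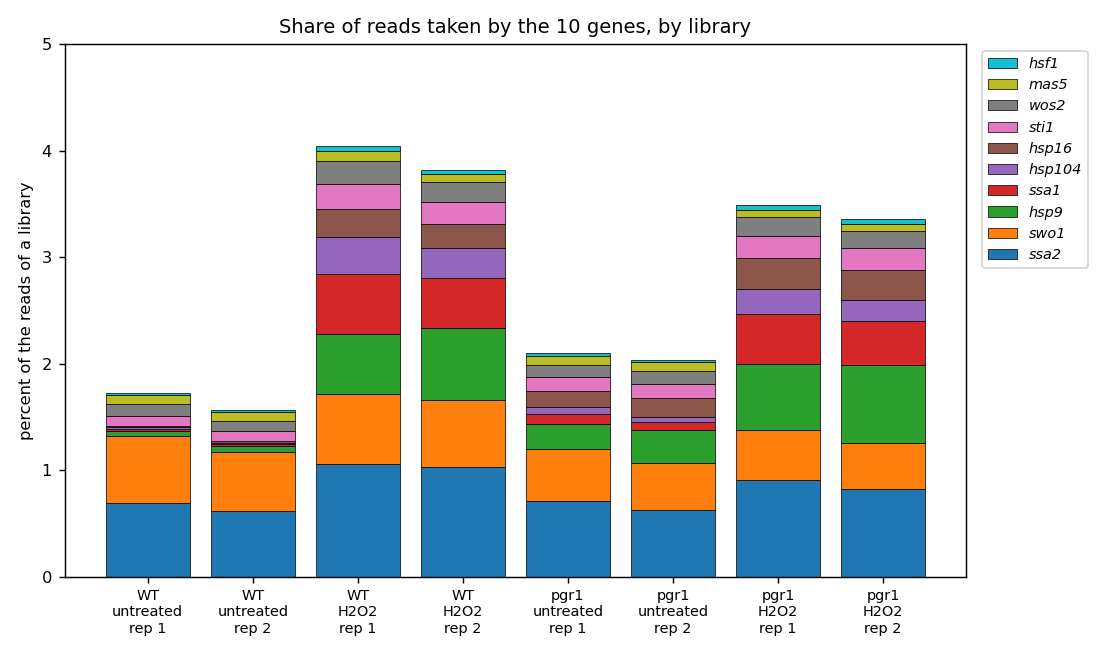
Percent of the reads of each library that fell on the 10 genes, stacked by gene. The total runs from 1.57% in untreated wild type replicate 2 to 4.04% in treated wild type replicate 1, and the bands of hsp9, ssa1, hsp104 and hsp16 widen with H2O2 and, less, in the untreated mutant.

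Per coding kilobase, the order of the 10 transcripts turned with stress. In untreated wild type ssa2 led with 37039 ± 2593 normalized counts per kilobase (mean ± SD, n = 2), followed by swo1 (30779.7 ± 2488) and hsp9 (27438 ± 3921), and the ranges of swo1 and hsp9 overlapped. Next came wos2 (20475 ± 796), mas5 (7862 ± 317), sti1 (5661 ± 49.3), hsp16 (3562 ± 403) and hsf1 (1129 ± 24.3), each apart from its neighbours. At the bottom, ssa1 (977 ± 101) and hsp104 (845 ± 207) overlapped. In treated wild type hsp9 led with 421246 ± 60979 per kilobase, hsp16 (80064 ± 8158) and ssa2 (75197 ± 129) overlapped behind it, and ssa1 stood at 37163 ± 4175 just below swo1 (42987 ± 785). The lowest there were mas5 (9927 ± 1154) and hsf1 (3347 ± 37.6).

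In the untreated mutant hsp9 (157543 ± 25248 per kilobase) was already first, and hsp16 (45960.1 ± 3539) overlapped ssa2 (41065 ± 3975) behind it. In the treated mutant the order began with hsp9 (488230.2 ± 52521), hsp16 (98896 ± 446) and ssa2 (66215 ± 4606), and ssa1 (33894 ± 3141) overlapped swo1 (31825 ± 1760). Short coding regions raise these values: the coding region of hsp9 has 207 bases and its annotated exons 720. Over exon length, an alternative added after seeing the data, ssa2 stood above hsp16 in all 4 groups and hsp9 fell below wos2 in untreated wild type, at 7889 against 11441.

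Other genes of the chaperone network were read from lists by name, and their counts are to be read against the share of all genes called. With H2O2 that share was 37.7% higher and 34.6% lower in wild type and 35.7% and 32.5% in the mutant. Of 9 genes of the cytosolic Hsp70 system, 4 rose and 4 fell with H2O2 in wild type (median -0.08), near those shares. The J-protein gene psi1 rose by 3.39 ± 0.13 (limma, BH-adjusted p = 3.8e-08) and fes1, an Hsp70 nucleotide exchange factor, by 1.95, while ssz1, whose product works at the ribosome, was at -0.95 and was called. As with ssa1, psi1 was higher in the untreated mutant (1.39 ± 0.13; limma, BH-adjusted p = 4.41e-05), was at -0.02 between the strains after H2O2, and had a smaller response in the mutant (-1.41 ± 0.18; limma, BH-adjusted p = 7.44e-04).

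Hsp90 co-chaperones beyond the members rose in 4 of 5 cases with H2O2 in wild type and 1 fell (median 1.27), with wis2, a cyclophilin, at 1.37, the Hsp90 activator gene aha1 at 1.33 and git7 at 1.27. In the mutant 4 of these 5 rose and none fell (median 0.87). Without peroxide 3 of 5 were higher in the mutant, among them aha1 (0.46) and wis2 (0.34), where 22.8% of all genes were, and 3 had a smaller response in the mutant, where 15.3% of all genes did. Of 7 genes of the small heat shock and Hsp31 list, 6 rose in wild type and 7 in the mutant, and 6 were higher in the untreated mutant. Unlike most of the members, 5 of these 7 were also higher in the mutant after H2O2 and 1 was lower (median 1.32). Of all genes 26.5% were higher and 22.4% lower there. Among the 5 were hsp3102 (2.26) and hsp3104 (1.43), for which no difference of responses was called. Within that list hsp3101, annotated as a glyoxalase, rose by 6.04 in wild type and 3.26 in the mutant, whereas its relative hsp3103 was at -0.07 in wild type (limma, BH-adjusted p = 0.608) and rose by 1.29 in the mutant. The difference of responses was -2.78 for hsp3101 and 1.36 for hsp3103, both called (limma, BH-adjusted p = 2.86e-05 and 4.72e-04).

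The CCT chaperonin folds actin and tubulin. Of its 8 genes 5 fell with H2O2 in wild type, none rose and 3 were not called (median -0.26), with cct6 at -0.43 and cct4 at -0.40. In the mutant 2 rose and none fell (median 0.07), and 6 of 8 had a higher response in the mutant than in wild type, where 12% of all genes did. Prefoldin, which hands chains to CCT, had 1 of 6 genes higher and 1 lower in wild type and 4 higher in the mutant. Of 9 ER chaperone genes 6 rose and 1 fell in wild type, with ero11 at 1.48 and the ER Hsp70 gene bip1 at 0.60, and bip1 was at -0.01 in the mutant. Of 7 mitochondrial chaperone genes 6 rose and 1 fell in wild type and 2 rose and 1 fell in the mutant, against 35.7% and 32.5% of all genes. The disaggregase gene hsp78 was at 3.29 in wild type and 1.92 in the mutant.

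Among 14 other transcription factor genes of stress, metal and nutrient responses, 10 rose and 3 fell with H2O2 in wild type (median 0.55), against 37.7% and 34.6% of all genes. The Atf1 partner gene pcr1 was at 3.26 and atf1 at 2.10, both above the 1.57 of hsf1. In the untreated mutant atf1 was higher by 0.83 and pcr1 was at 0.15 (limma, BH-adjusted p = 0.182). Of 11 tested markers of nitrogen starvation and sexual development, another state of these cells, 2 rose and 7 fell with H2O2 in wild type, and 4 were higher and none lower in the untreated mutant, against 22.8% and 15.8% of all genes. All 14 such genes summed to 3201 and 3461 normalized counts in wild type without peroxide and 6615 and 7751 with it, and in the mutant to 6754 and 7346 without and 9427 and 9898 with it, and none was at 0 in both libraries of a group. Such a sum follows the genes with the most counts, and in wild type it rose although 7 of the 11 tested markers fell. The protease gene isp6 rose by 2.34 in wild type and was higher by 2.02 in the untreated mutant, while ste11, the regulator of mating genes, fell by 3.02 in wild type and was at -0.08 between the untreated strains. The part of this state in the heat shock genes was not tested. Of 6 strain marker genes, pgr1 among them, 4 rose with H2O2 in wild type, and between the untreated strains only pgr1 was called. After H2O2 4 of the 6 were lower in the mutant, among them lys1 (-0.84; limma, BH-adjusted p = 0.00113) and his3 (-0.53; limma, BH-adjusted p = 0.00101), where 22.4% of all genes were lower. The lowest value there, -6.13, was that of pgr1, the deleted gene. A smaller response in the mutant was called for 2 of the 6, against 15.3% of all genes.

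For 4 members the 3 genes with the most similar profile over the 8 libraries were listed, by the root mean square distance of centred log2 values among 4946 genes. For ssa1 these were SPAC22F8.05, annotated as a trehalose-phosphate synthase (distance 0.199, r = 0.996), tsp0, annotated as a TspO-like protein (0.210, r = 0.995) and inv1, the invertase gene (0.291, r = 0.992). For hsp16 they were SPCC338.18, annotated as uncharacterized (0.224, r = 0.993), frp2, annotated as a ferric-chelate reductase (0.396, r = 0.992), and SPAC19G12.09, annotated as an indoleacetaldehyde reductase of the aldo-keto family (0.441, r = 0.974). For hsf1 they were gid5 (0.0452, r = 0.998), bqt4 (0.0678, r = 0.996) and sds23 (0.0679, r = 0.996). For swo1 they were trp3 (0.0582, r = 0.979), sws2 (0.0622, r = 0.973) and not11 (0.0669, r = 0.972). With 4 groups of 2 libraries such values of Pearson's r describe the group pattern and carry no test. Singled out after its value was seen, the nearest gene to wos2 was another Hsp90 partner, wis2, at a distance of 0.0399 (r = 0.999).

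Among the members themselves, hsf1 and sti1 had the closest profiles (0.106, r = 0.990), then ssa2 and wos2 (0.148, r = 0.979) and swo1 and mas5 (0.151, r = 0.867). Of the steeply induced genes, hsp9 and hsp16 lay 0.440 apart and hsp104 and ssa1 0.476, while hsp16 and hsp104 lay 0.854 apart. In the untreated mutant hsp16 stood 12.9-fold and hsp104 3.03-fold above untreated wild type in the fit.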

How the data were processed

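Poly(A) RNA had been extracted with hot phenol and made into stranded libraries, per the labels' protocols. FastQC, Trimmomatic, Salmon and DESeq2 were used with build ASM294v2, per the submitters' processing notes, while the sources used here give no versions, settings or strandedness of the counting. The authors deposited a signal per gene, the read count divided by a DESeq2 size factor of its library. Values were whole multiples of 1 read, within 0.05 reads, for at least 99.98% of genes, and 12026222 to 14125543 reads per library were recovered by rounding. A line naming no gene, which held no values, was left out. Names came from a RefSeq gene table of ASM294v3 (5129 of 5165 identifiers matched), so no coordinates are given and no sequences are printed. That table calls swo1 hsp90.

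Testing took in the 5028 genes that reached a value of 10 in 2 or more libraries and used limma 3.58.1 in R 4.3.3 on log2(value + 1), with trended prior variance and 1 mean per group over all 8 libraries (4 residual degrees of freedom). A fold change on this scale understates changes of low genes. Tests were two-sided, with Benjamini-Hochberg adjustment over all genes. As alternatives, edgeR 4.0.16 and DESeq2 1.42.0 were run on the recovered reads. Replicate libraries differed beyond the sampling of reads (chi-square per degree of freedom 7.85 to 24.3). The fit was also run on simulated counts with known scaling between libraries, so that run does not cover the choice of scaling here. The members and the 10 gene lists (93 of 99 entries matched; the sgt1 entry was dropped because its annotation names another function) were chosen with earlier results of these data known. All members were named. Of each list up to 3 called genes with the largest change in wild type or in the difference of responses were eligible.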

Additional observations from a re-analysis of the deposited data

Results flagged for a closer look

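The H2O2 responses of the strains differed by a test of the difference itself (mutant minus wild type, limma, BH-adjusted p below 0.05) for 7 of the 10 genes. The values were -3.38 for hsp16, -2.51 for ssa1, -2.30 for hsp9, -2.05 for hsp104, -0.64 for sti1, -0.45 for wos2 and -0.37 for hsf1. Of all genes tested 27.3% were called in this comparison, 12% with a higher and 15.3% with a lower response in the mutant. The calls of wos2 and hsf1 were lost in some of the fits that left out 1 library. For the 4 members with the largest values the untreated mutant was 3.03-fold to 12.9-fold above untreated wild type, and the treated strains were within 1.37-fold of each other.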

How the results depend on the processing

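Of the values of single genes under all alternatives, 962 kept direction and call, 43 kept the direction and lost the call, 15 kept it and gained a call, and 20 changed sign or came to exactly 0, some of these with a call lost or gained. Some alternatives, such as limma without trend or leaving out a library of a group not compared, return the same fold change. Those can alter a call but not a direction, which adds to the 962. Scaling to library totals or totals without the 10 genes (the latter added after seeing the data) and quantile normalization moved most; the cause was not tested, but under library totals the median of all genes was -0.35 in wild type, -0.305 in the mutant and -0.11 between untreated strains, against -0.00072, 0.0149 and -0.00062.

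With H2O2 in wild type, quantile normalization gave ssa2 0.0, swo1 -0.15 and mas5 -0.0467, and library totals gave mas5 -0.0175. All genes split 1185 higher and 2772 lower under library totals, and 1242 and 2675 under totals without the 10 genes, against 1894 and 1741. In the mutant, 1 of the 10 genes (mas5) was lower under each of these 3 scalings, with swo1 and mas5 at -0.15 and -0.29 (quantile), -0.0398 and -0.28 (totals) and -0.0197 and -0.26 (totals without the 10), and all genes split 1021 and 2687 (totals) and 1059 and 2616 (totals without the 10), against 1793 and 1634. Between untreated strains, quantile normalization called 2 of the 10 lower (ssa2 at -0.46, and swo1), and 1443 of all genes lower, with 1440 under totals and 1400 under totals without the 10, against 792. There mas5 was at 9.05e-05 with DESeq2. After H2O2, 1 of the 10 was higher in the mutant under quantile normalization, TMM, limma without trend and edgeR, and 0 under both scalings to totals; limma without trend called 1 lower. Quantile normalization gave hsp16 -0.0036 and ssa2 0.0 there, and ssa2 0.46 in the difference of responses. Because that method sets values by rank, those of the highly abundant ssa2 reflect its rank and not the size of a change.

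With 1 library left out, where the lone sample is assumed to vary like the other groups, 8 to 10 of the 10 genes rose in wild type, 8 in the mutant, 6 to 7 were higher in the untreated mutant, and 5 to 7 had a smaller response in the mutant. After H2O2, 0 to 2 were higher and 0 to 3 lower, and of all genes 873 to 1336 were higher. Of all genes 470 to 853 were lower in the untreated mutant, and 315 to 604 had a higher and 461 to 796 a lower response. Values of mas5 ran from -0.0522 to 0.13 in the mutant and from -0.0413 to 0.041 between untreated strains, and those of sti1 after H2O2 from -0.11 to 0.0536.

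The labels do not say whether the replicate number marks a shared batch, and the main fit took no account of it. Between pairs of groups, deviations of same-numbered libraries correlated over genes from -0.14 (treated wild type and untreated mutant) to 0.37 (the untreated groups). A shared effect of the replicate number was not tested. With the replicate number as a block, swo1 was called in the mutant's response (0.28) and, as the 1 gene lower, between untreated strains (-0.23), hsp9 (0.22) and hsp104 (-0.45) after H2O2, and mas5 in the difference of responses (-0.29).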

Other observations

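For most of the 10 genes the libraries with the same replicate number lay on the same side of their group. Replicate 1 was the higher in all 4 groups for hsp104, ssa1, ssa2, swo1, sti1 and mas5, and replicate 2 for hsp9, which makes 7 of the 10 genes. Of all 5028 genes tested, 605 had replicate 1 and 794 had replicate 2 the higher in all 4 groups. The labels do not say what the number stands for.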
